A study of Mus musculus with 10 samples.

Results

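The nuclear genes for the subunits of the respiratory chain were followed in mouse dorsal telencephalon, the forerunner of the cortex, at embryonic day 12. Members were chosen by symbol alone. A symbol was taken when it began with Ndufa, Ndufb, Ndufc, Ndufs or Ndufv followed by digits, was 1 of Sdha to Sdhd, or began with Uqcr, with Cox4 to Cox8 followed by a letter, or with Atp5. Assembly factors of the Ndufaf series and symbols ending in -ps were left out. The rule found 85 of the 38803 symbols listed for each library. They fall into 37 symbols for complex I, 4 for complex II, 8 for complex III, 18 for complex IV and 18 for complex V. Some symbols name genes that are not core parts of their complex. Ndufa4 is today assigned to complex IV, Atp5sl is an older name of Dmac2, an assembly factor of complex I, and Atp5l2 is annotated as a processed pseudogene, which can share reads with Atp5l.

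The study set 5 mutant libraries against 5 control libraries. Mutants had the genotype Rnu11 Flx/Flx::Emx1-Cre+/-, in which both copies of Rnu11 were floxed, and controls had Rnu11 WT/Flx::Emx1-cre+/-, with 1 floxed copy. Emx1-Cre therefore ran in both groups, in progenitors of the dorsal telencephalon, and the floxed copy of a control could recombine as well. All embryos were of mixed C57/Bl6 - 129 SvJ background. Rnu11 encodes the U11 RNA of the minor spliceosome, and the comparison asks what its loss does to transcripts of the early cortex. The labels do not say that the libraries came from separate embryos, so p-values measure the spread between these libraries.

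The respiratory chain passes electrons from NADH (complex I) and succinate (complex II) through ubiquinone to complex III, and from there through cytochrome c to complex IV, where oxygen is reduced. Complexes I, III and IV pump protons across the inner mitochondrial membrane, and complex V uses the returning protons to make ATP. Most subunits are encoded in the nucleus and the others in mitochondrial DNA, so each complex except the second is built from both genomes. Several subunits of complex IV have isoforms that are used mainly in muscle, lung or testis. NRF1, GABPA and YY1 are transcription factors known to act at promoters of many of these genes.

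The targeted RNA was lower in mutants, without overlap. Rnu11 stood at 712, 473, 511, 1344 and 1421 FPKM in mutants 1 to 5, against 2386, 2031, 2817, 1913 and 2266 FPKM in controls 1 to 5. FPKM is a level per length of transcript and per library size. The mutant mean was 39.1% of the control mean, the log2 difference was -1.50 with an SE of 0.31, and limma gave an adjusted p of 0.118. An exact two-sided permutation test over the 10 libraries gave a p of 0.00794, the smallest possible for 5 against 5. The libraries also fell apart in a way that the genotype does not give. Mutants 4 and 5 and control 5 held 487 to 688 FPKM of Rnu12, another short RNA of the minor spliceosome, against 5.91 to 33.8 FPKM in the other 7. These are called the second and the first library set below, a split made from the data and not from the labels. A rough estimate of depth was lowest in control 4 (9960000 fragments) and highest in mutant 5 (21300000 fragments). All 8 markers of the dorsal telencephalon reached 1 FPKM in every library, with sums of 149 to 172 FPKM in mutants and 134 to 177 FPKM in controls. Markers of the ventral telencephalon summed to 8.66 to 22.2 FPKM in mutants and 5.74 to 52.1 FPKM in controls, with the high value in control 4, and Gsx2 and Nkx2-1 were listed at 0 in some libraries. Erythroid markers summed to 5396 to 10160 FPKM in mutants and 3906 to 9701 FPKM in controls. In these bulk libraries, fewer cells of a type and less RNA per cell cannot be told apart.

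Promoters of 69 of the members were found in a RefSeq table for GRCm38.p6, as 75 windows of 300 bases that run from 250 bases before the start of a gene to 50 after it. They were searched on both strands for CCGGAAG, a core of the GABPA motif, for GCGCA and GCGC with any 1 base between them, a core of the NRF1 motif, and for AAGATGGC, a core of the YY1 motif. CCGGAAG was present in 16 windows (21.3%), against 8.86% of all 32851 windows and 17.5% of the 11562 windows of tested genes. The NRF1 core was present in 18 windows (24%), against 4.6% of all windows and 10.1% of those of tested genes. AAGATGGC was present in 12 windows (16%), against 2.75% of all windows and 4.46% of those of tested genes. In all, 38 of the 69 genes held at least 1 of these motifs and 31 held none in this window, and a match is a description of the letters only. Cox6b2 is printed because it had the largest difference between groups of all tested members, Cox6b1 as the other isoform of that subunit, and Sdhd because it holds a pair of these motifs and differed little. Each line gives the 150 bases before the start, 5′ to 3′ on the strand of the gene, with motif matches in capitals. CTTCCGG is CCGGAAG read on the other strand.
Cox6b2, chr7:4753095-4753244, minus strand, no match: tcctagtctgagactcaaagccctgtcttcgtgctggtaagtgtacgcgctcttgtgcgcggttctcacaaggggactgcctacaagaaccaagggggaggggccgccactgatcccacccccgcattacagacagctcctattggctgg
Cox6b1, chr7:30626115-30626264, minus strand, 1 match to the GABPA core: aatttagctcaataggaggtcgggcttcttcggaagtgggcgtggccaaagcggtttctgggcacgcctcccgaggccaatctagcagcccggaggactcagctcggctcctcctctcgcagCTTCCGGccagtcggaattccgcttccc
Sdhd, chr9:50603850-50603999, minus strand, 1 match to the NRF1 core and then 1 to the GABPA core: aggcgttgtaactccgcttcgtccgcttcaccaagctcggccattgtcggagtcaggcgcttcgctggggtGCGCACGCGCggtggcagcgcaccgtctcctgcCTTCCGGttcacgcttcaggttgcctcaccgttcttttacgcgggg

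No subunit gene passed the test between mutants and controls, and their levels lay close together in both groups. Of the 85 members, 79 reached 1 FPKM in at least 5 libraries and were tested, and 6 did not (Ndufa4l2, Cox4i2, Cox6a2, Cox7b2, Cox8b and Cox8c). Over all 13522 tested genes, limma called 21 at an adjusted p under 0.05, which is 0.155% (0.0887% higher and 0.0666% lower in mutants), and it called 0 of the 79 members, whose lowest adjusted p was 0.333. At an unadjusted p under 0.05 there were 7 members (8.86%), all higher in mutants, against 8.76% of all tested genes (7.69% higher in mutants), a share near the background. Those were Ndufv3, Ndufa3, Ndufb5, Ndufa7, Cox6b2, Cox8a and Cox5b.

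Differences are given in log2(FPKM + 1), mutant minus control, a scale that understates changes of low genes. The median over the 79 members was 0.03, against 0.11 over all tested genes, so the members lay 0.08 below the others on this scale. Its sign depended on the scaling, since it was -0.10 after median-ratio scaling and -0.03 after quantile normalization, which moved the median of all genes to 0.00 and -0.01. Median-ratio scaling also put the medians of complexes I, II, III and V below 0. There were 50 members above 0 and 29 below, against 10231 above and 3291 below over all tested genes. Of the members, 29 lay above the median of all tested genes, and 65 lay within 0.2 of 0. The median SE was 0.12, against 0.15 over all tested genes. For 70 of the 79, the 95% interval of the difference lay within 1.5-fold in either direction, and for 75 within 2-fold. The plot of all differences with their intervals shows how few intervals reach far from 0.

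**Figure D1:**
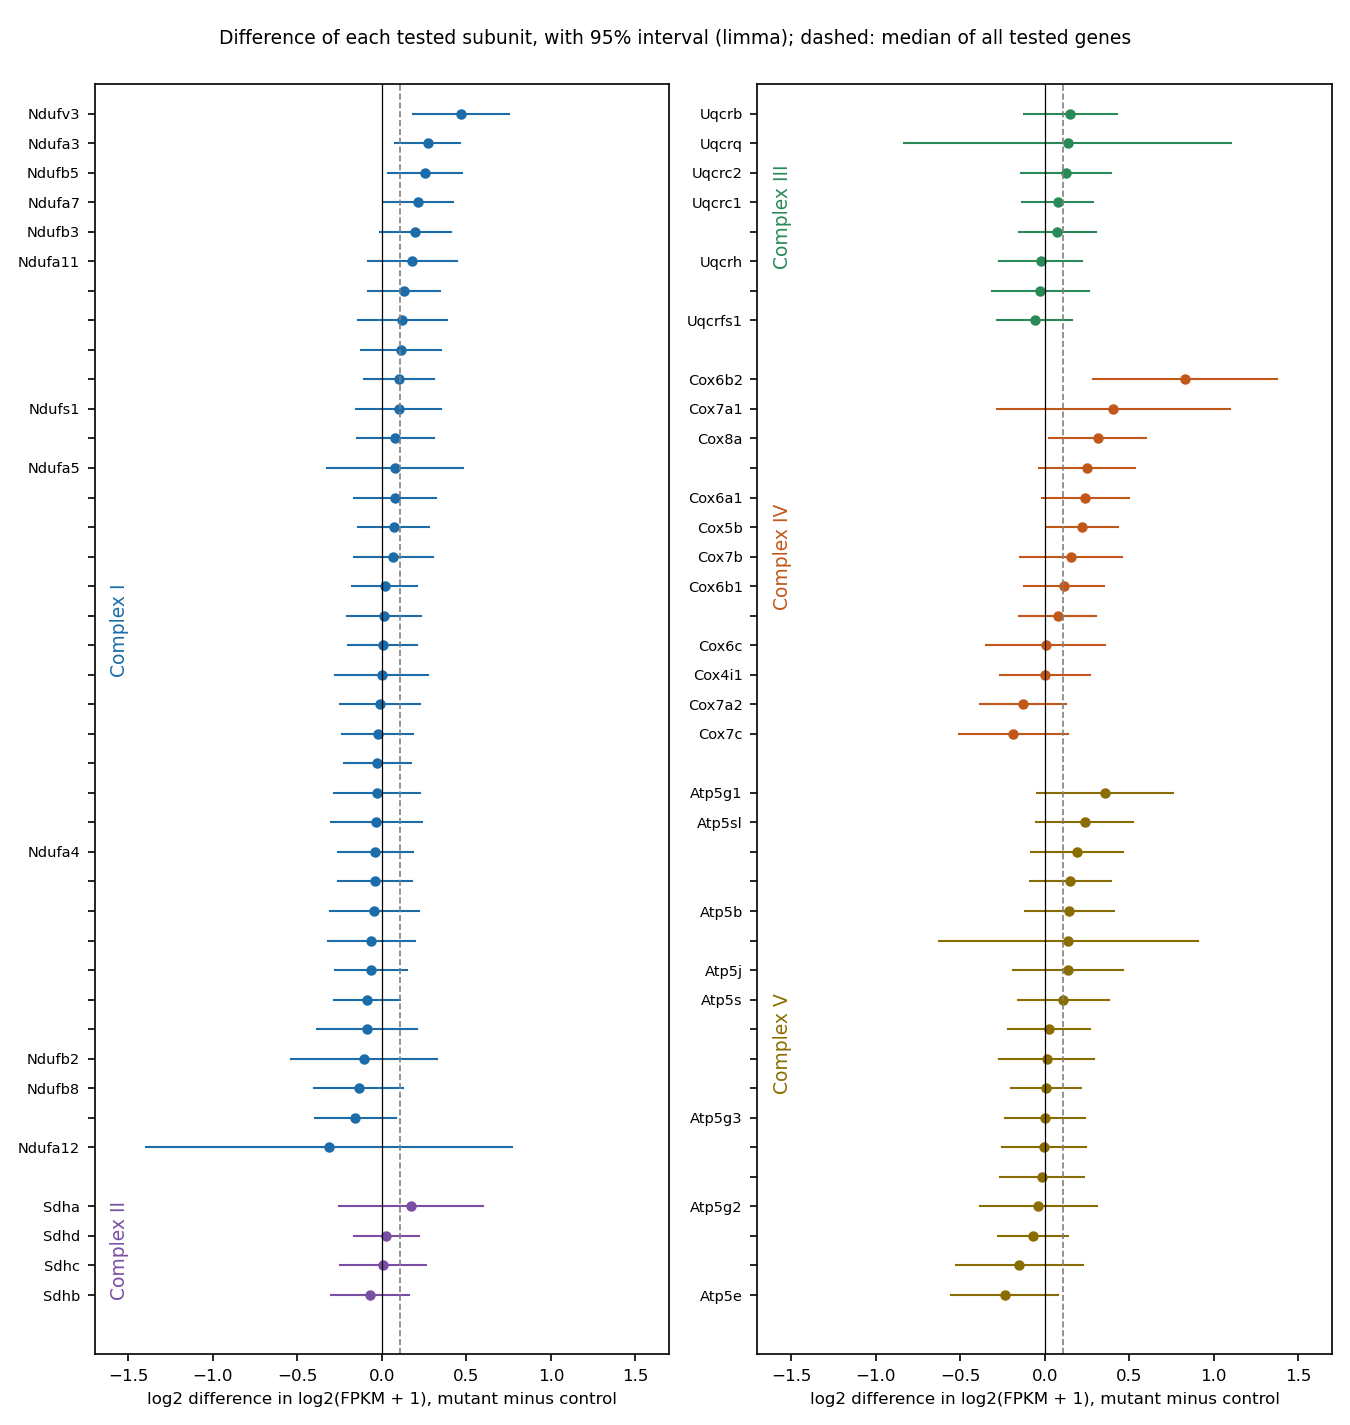
Log2 difference in log2(FPKM + 1), mutant minus control, of the 79 tested subunit genes by complex, with labels for selected members; points are limma estimates, lines 95% intervals, and the dashed line the median of all tested genes at 0.11. Most points lie within 0.2 of 0, Cox6b2 lies highest at 0.83, and Ndufa12 and Uqcrq have the widest intervals of complexes I and III.

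Summed FPKM gave the same picture of near-equal levels for complexes I, II, III and V, while complex IV was somewhat higher in mutants. Complex I summed to 2887 ± 90.8 FPKM in mutants and 2868 ± 129 FPKM in controls (SD, n = 5 each), so that mutants stood at 101% of controls. The sums in mutants were 102% of controls for complex II, 102% for complex III, 107% for complex IV and 99.4% for complex V. Complex IV summed to 1879 ± 72.3 FPKM in mutants and 1763 ± 94.1 FPKM in controls (SD, n = 5 each). That difference was larger than either SD, and the sums were not tested. The sums were not rescaled, and the median log2 difference of all tested genes was itself above 0, at 0.11. Ndufa4, today assigned to complex IV, is counted in the sum of complex I. It averaged 399 FPKM in mutants and 410 FPKM in controls. All members together summed to 8637 ± 275 FPKM in mutants and 8485 ± 402 FPKM in controls (SD, n = 5 each), a difference smaller than either SD.

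Complex I, which takes electrons from NADH, had 36 of 37 members tested, with a median difference of 0.01. There were 19 members above and 17 below 0, and 9 lay above the median of all tested genes. Ndufs1, an iron-sulphur subunit on the path of the electrons, averaged 47.0 ± 1.67 FPKM in mutants and 44.3 ± 7.45 FPKM in controls (SD, n = 5 each). The Ndufb genes, for accessory subunits of the membrane arm, ran between -0.16 and 0.26 with a median of 0.01. The Ndufa genes had a median of 0.08 over 13 tested members, and Ndufc1 and Ndufc2 a median of -0.06.

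Ndufv3, an accessory subunit beside the NADH-binding flavoprotein, had the smallest p of the complex. It lies at chr17:31520115-31531331 on the plus strand (GRCm38). Its levels were 38.6, 42.1, 54.4, 52.0 and 58.5 FPKM in mutants 1 to 5, against 35.0, 29.9, 38.6, 32.7 and 38.8 FPKM in controls 1 to 5. Mutants 2 to 5 lay above every control, and mutant 1 lay just under controls 3 and 5, so the groups overlapped. The means were 49.1 ± 8.43 FPKM in mutants and 35.0 ± 3.81 FPKM in controls (SD, n = 5 each), with a log2 difference of 0.47, an SE of 0.13 and an adjusted p of 0.333 by limma. The difference was 0.38 within the first library set and 0.50 within the second.

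In 3 members of complex I the 5 mutants all lay above the 5 controls, and in 0 did they all lie below. Over all tested genes these shares were 1.52% and 0.377%. Ndufa3, an accessory subunit of the membrane arm, had 100.3, 94.1, 97.5, 93.7 and 103 FPKM in mutants 1 to 5, against 82.3, 80.6, 75.4, 77.0 and 88.4 FPKM in controls 1 to 5. The gap was narrow, since control 5 came close to the lowest mutants. Its log2 difference was 0.27 with an SE of 0.09 and an adjusted p of 0.388 by limma. Exons of Ndufa3 overlap those of Tfpt on the opposite strand, and no source used here says whether the counting used strand, so reads of the pair may be mixed.

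Ndufb5, another accessory subunit of the membrane arm, had 59.4, 57.8, 56.6, 60.5 and 66.3 FPKM in mutants 1 to 5, against 52.9, 42.8, 47.1, 52.7 and 56.0 FPKM in controls 1 to 5. The lowest mutant and the highest control were nearly level. The log2 difference was 0.26 (SE 0.10, adjusted p 0.503 by limma), and its exons overlap those of Mrpl47 on the opposite strand. Ndufb3, also of the membrane arm, had 21.9, 21.1, 25.1, 21.3 and 19.8 FPKM in mutants 1 to 5, against 19.4, 16.8, 19.1, 19.7 and 19.4 FPKM in controls 1 to 5. Mutant 5 and control 4 were almost equal, and the log2 difference was 0.20 (SE 0.10, adjusted p 0.588 by limma). Ndufa7 averaged 97.4 ± 7.09 FPKM in mutants and 83.9 ± 5.84 FPKM in controls (SD, n = 5 each). It is named because its unadjusted p was under 0.05, a choice made after its values were seen.

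Ndufa12, an accessory subunit of the peripheral arm, had the lowest difference of all members, and a single library set it. It had 7.49, 39.6, 38.0, 45.4 and 51.4 FPKM in mutants 1 to 5, against 34.8, 30.0, 28.9, 60.1 and 46.9 FPKM in controls 1 to 5. Mutant 1 stood far below all other libraries, while the other 4 mutants lay within the range of the controls. The log2 difference was -0.31 (SE 0.48, adjusted p 0.861 by limma) with all libraries and 0.16 without mutant 1. Ndufa12 was named after its values were seen.

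**Figure D2:**
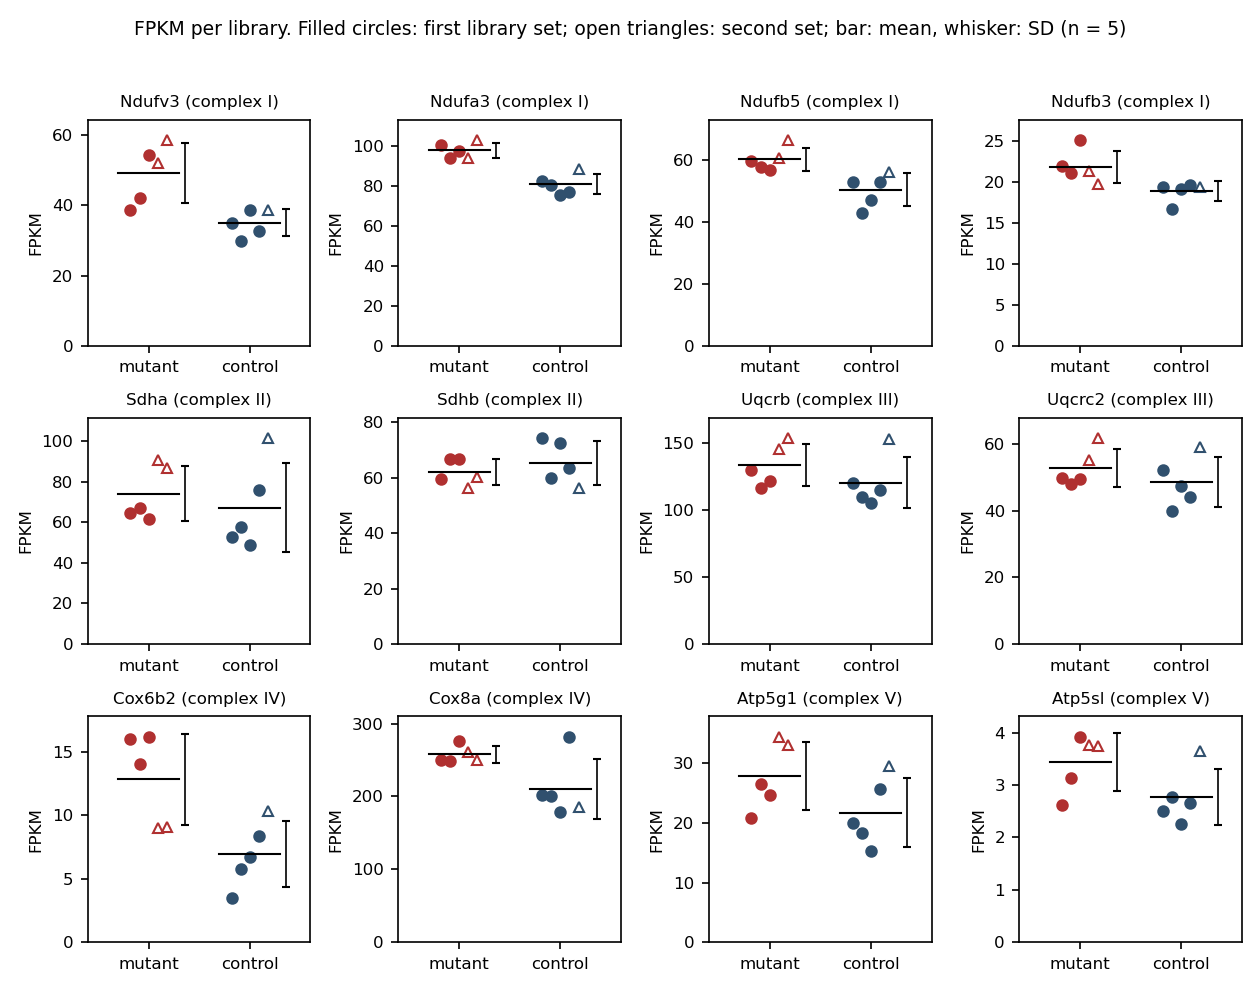
FPKM per library of 12 members, with mutants left of controls; filled circles are libraries of the first set, open triangles those of the second, bars group means and whiskers SD (n = 5). Ndufa3, Ndufb5 and Ndufb3 show no overlap, while in Cox6b2 the 3 mutants of the first set lie at 14.0 to 16.2 FPKM and the 2 mutants of the second near 9.

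Complex II, the succinate dehydrogenase, is the only complex here with no mitochondrially encoded subunit. Its 4 genes had a median difference of 0.02 and ran between -0.07 and 0.17. Sdha, the flavoprotein that oxidises succinate, had 64.3, 67.1, 61.6, 90.7 and 86.5 FPKM in mutants 1 to 5, against 52.6, 57.7, 48.6, 76.0 and 101.2 FPKM in controls 1 to 5. The high values were those of mutants 4 and 5 and control 5, the second library set, and the groups overlapped (log2 difference 0.17, SE 0.20, adjusted p 0.814 by limma). Sdhb, the iron-sulphur subunit, averaged 62.0 ± 4.63 FPKM in mutants and 65.3 ± 7.79 FPKM in controls (SD, n = 5 each). Sdhd, a membrane anchor, had the highest level of the complex, with 94.99 ± 5.49 FPKM in mutants and 93.2 ± 4.03 FPKM in controls (SD, n = 5 each).

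Complex III, which passes electrons from ubiquinol to cytochrome c, had all 8 members tested, with a median difference of 0.08 and a range from -0.06 to 0.15. Uqcrb, a small subunit that binds near the quinone, averaged 133 ± 15.6 FPKM in mutants and 120.3 ± 18.9 FPKM in controls (SD, n = 5 each). Uqcrc2, a core protein on the matrix side, averaged 52.8 ± 5.63 FPKM in mutants and 48.5 ± 7.45 FPKM in controls (SD, n = 5 each). Both differences were about as large as their SEs (0.15 with SE 0.13 and 0.13 with SE 0.12), and their adjusted p values by limma were 0.743 and 0.779. Uqcrb overlaps Gm10767 and Uqcrc2 overlaps Pdzd9 in exons of the opposite strand. Uqcrfs1, the Rieske iron-sulphur protein, had 78.5 ± 6.25 FPKM in mutants and 81.9 ± 8.48 FPKM in controls (SD, n = 5 each). Uqcrh, the hinge protein and the most abundant member per length, had 373 ± 19.4 FPKM in mutants and 381 ± 36.7 FPKM in controls (SD, n = 5 each).

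Complex IV, cytochrome c oxidase, had the highest median of the 5 complexes, 0.16, with 11 of 13 tested members above 0. Over all tested genes, 10231 of 13522 lay above 0. Of the 13 members, 8 lay above the median of all tested genes. Under median-ratio scaling the median of complex IV was 0.03. Over the 11 members used in most tissues, Cox6b2 and Cox7a1 left aside, it was 0.11, the value of all tested genes, and the range was -0.18 to 0.31. Cox4i1, a regulatory subunit, averaged 197 ± 25.6 FPKM in mutants and 196 ± 20.3 FPKM in controls (SD, n = 5 each).

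Cox6b2, the isoform of subunit VIb known from testis, had the largest difference of all 79 tested members. The gene lies at chr7:4751792-4753094 on the minus strand (GRCm38), and its promoter is the first one printed above. Its levels were 15.9, 14.0, 16.2, 9.02 and 9.04 FPKM in mutants 1 to 5, against 3.48, 5.81, 6.68, 8.33 and 10.4 FPKM in controls 1 to 5. Mutants 1 to 3 stood above every control, whereas mutants 4 and 5 lay below control 5. The means were 12.8 ± 3.57 FPKM in mutants and 6.93 ± 2.59 FPKM in controls (SD, n = 5 each), with a log2 difference of 0.83, a 95% interval of 0.29 to 1.37 and an adjusted p of 0.357 by limma.

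Within the first library set, the difference of Cox6b2 was 1.26 and limma gave an adjusted p of 0.0427. That made it the 1 member called there, where 0.683% of 13030 genes were called. Within the second set it was -0.18, from 2 mutants and 1 control. The difference between the sets was itself tested as an interaction of genotype and set, a term added after these values were seen, and was -1.44 with an adjusted p of 0.548 by limma, where 0 genes were called (0%). At an unadjusted p under 0.05 that term held 9.07% of all tested genes. Some marker sums of other cells, but not all, were higher in the mutants of the first set than in those of the second. Endothelial sums overlapped, with 26.4 to 40.8 FPKM in the mutants of the first set and 24.2 to 28.3 FPKM in those of the second. Erythroid sums (5396 to 10160 against 5955 to 9101 FPKM) and ventral telencephalon sums (8.66 to 22.2 against 8.83 to 19.4 FPKM) overlapped as well. Markers of early neurons summed to 264 to 312 FPKM in the mutants of the first set, 209 to 216 FPKM in those of the second and 159 to 333 FPKM in controls. Markers of microglia summed to 27.7 to 43.3 FPKM in the mutants of the first set, 13.4 to 14.3 FPKM in those of the second and 7.69 to 20.3 FPKM in controls. Markers of meninges and pericytes summed to 32.2 to 45.2 FPKM in the mutants of the first set, 12.8 to 14.3 FPKM in those of the second and 12.0 to 37.4 FPKM in controls. Control 5, the control of the second set, had the highest Cox6b2 of the controls. It had 161 FPKM of early neuron, 7.69 FPKM of microglia and 12.0 FPKM of meninges and pericyte markers, below both mutants of that set. All 4 markers each of early neurons, of microglia, and of meninges and pericytes reached 1 FPKM in every library. Rnu11 itself differed by -2.02 within the first set and by -0.71 within the second. The part of other cells and of Rnu11 levels in the Cox6b2 result was not tested.

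Cox6b1, the isoform of the same subunit in most tissues, ran from 387 to 447 FPKM in mutants and from 340 to 403 FPKM in controls, with a log2 difference of 0.11. Per length, Cox6b2 made up 2.15 to 3.91% of the summed FPKM of the pair in mutants and 0.855 to 2.64% in controls. The testis isoform was thus a small part of the subunit's transcripts in all 10 libraries.

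Cox8a, a small single-pass membrane subunit, had 250.5, 249, 277, 261 and 251 FPKM in mutants 1 to 5, against 202, 201, 179, 282 and 186 FPKM in controls 1 to 5. All mutants lay above controls 1, 2, 3 and 5, and control 4 lay above every mutant. Control 4 is also the library with the highest sums of ventral telencephalon and of early neuron markers. It had the lowest erythroid sum and the lowest estimated depth as well. The part of these traits here was not tested. The log2 difference was 0.31 (SE 0.13, adjusted p 0.545 by limma). Cox5b, a zinc-binding subunit on the matrix side, averaged 28.9 ± 2.19 FPKM in mutants and 24.6 ± 1.85 FPKM in controls (SD, n = 5 each), with a log2 difference of 0.22 and an adjusted p of 0.552 by limma. It was named after its values were seen. In the other direction, Cox7c, also chosen after its values were seen, averaged 77.1 ± 8.10 FPKM in mutants and 89.1 ± 20.7 FPKM in controls (SD, n = 5 each), a difference within the SD of the controls.

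Apart from Cox6b2, the isoforms known from other tissues were near or at 0, next to counterparts at far higher levels. Ndufa4l2, an isoform known to be induced by low oxygen, ran from 0.236 to 0.99 FPKM, against 387 to 440 FPKM for Ndufa4. Cox4i2, the lung isoform of subunit IV, ran from 0.321 to 0.949 FPKM, against 171 to 228 FPKM for Cox4i1. The muscle isoform Cox6a2 was listed at 0 in all libraries but mutant 5 (0.0889 FPKM), and the muscle isoform Cox8b in all but mutant 2 (0.29 FPKM). Cox7b2 and Cox8c, both known from testis, were listed at 0 in all 10 libraries. Cox7a1, a muscle isoform, ran from 0.968 to 1.80 FPKM in mutants and from 0 to 2.16 FPKM in controls, where controls 4 and 5 were listed at 0. Cox6b2 was thus the isoform of this kind with the highest level.

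Complex V, the ATP synthase, had all 18 members tested, with a median difference of 0.02 and a range from -0.24 to 0.36. The 5 genes of the catalytic F1 head had a median of 0.15, about the value of all tested genes. Atp5b, the catalytic beta subunit, averaged 274 ± 22.5 FPKM in mutants and 249 ± 32.4 FPKM in controls (SD, n = 5 each). Atp5e, the epsilon subunit of the head's stalk, was the most abundant member per length. It had 354, 501, 343, 345 and 342 FPKM in mutants 1 to 5, against 449, 459, 486, 463 and 352 FPKM in controls 1 to 5. Mutant 2 stood above every control and control 5 among the mutants, so that 1 library in each group went against the rest (log2 difference -0.24, SE 0.15, adjusted p 0.654 by limma).

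Subunit c, which forms the proton-driven ring, is encoded by 3 genes whose mature proteins are identical. Atp5g1 had 20.8, 26.4, 24.6, 34.3 and 32.9 FPKM in mutants 1 to 5, against 19.95, 18.2, 15.3, 25.5 and 29.4 FPKM in controls 1 to 5. The groups overlapped, and in each the second library set was high (log2 difference 0.36, SE 0.18, adjusted p 0.596 by limma). Atp5g2 averaged 43.5 ± 8.57 FPKM in mutants and 44.7 ± 8.37 FPKM in controls, and Atp5g3 180 ± 12.4 FPKM in mutants and 180 ± 19.96 FPKM in controls (SD, n = 5 each). Of the summed FPKM of the 3 genes, Atp5g1 held 11 ± 1.49% in mutants and 8.68 ± 1.17% in controls, and Atp5g3 held 71.7 ± 2.77% in mutants and 73.3 ± 2.36% in controls (SD, n = 5 each). Atp5g3 was therefore the main source of subunit c transcripts per length in both groups. Atp5sl (Dmac2) averaged 3.44 ± 0.547 FPKM in mutants and 2.77 ± 0.529 FPKM in controls (SD, n = 5 each), with an adjusted p of 0.623 by limma.

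Levels per length differed far more between subunits than between groups. Over all 10 libraries, the mean of the most abundant tested member was 73.2 times that of the least abundant in complex I, 1.48 times in complex II, 9.52 times in complex III, 330 times in complex IV and 245 times in complex V. Single members at the ends set these ratios. The highest symbol of complex I was Ndufa4, today assigned to complex IV. The lowest of complex IV was the muscle isoform Cox7a1 at 1.18 FPKM, and without the tissue isoforms it was Cox5b at 26.8 FPKM. Complex I ran from Ndufa4 at 404 FPKM and Ndufb8 at 188 FPKM to Ndufa11 at 5.52 FPKM. In complex II the order was Sdhd at 94.1, Sdhc at 77.1, Sdha at 70.6 and Sdhb at 63.6 FPKM, a subunit set of near-equal levels. In complex III, Uqcrh at 377 FPKM lay apart from Uqcr11 at 211 and Uqcr10 at 192 FPKM, whose ranges overlapped, and Uqcrc1 was lowest at 39.6 FPKM. In complex IV, Cox6b1 at 389 FPKM lay above Cox8a, Cox7a2, Cox6a1, Cox4i1 and Cox6c, which ran from 234 to 185 FPKM with overlapping ranges. In complex V, the order led from Atp5e at 409 FPKM, Atp5k at 325.5 FPKM and Atp5b at 262 FPKM to Atp5s at 1.67 FPKM. The median coefficient of variation over the 10 libraries was 11.1% for the tested members, against 19.99% for all tested genes, whose levels are mostly lower.

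**Figure D3:**
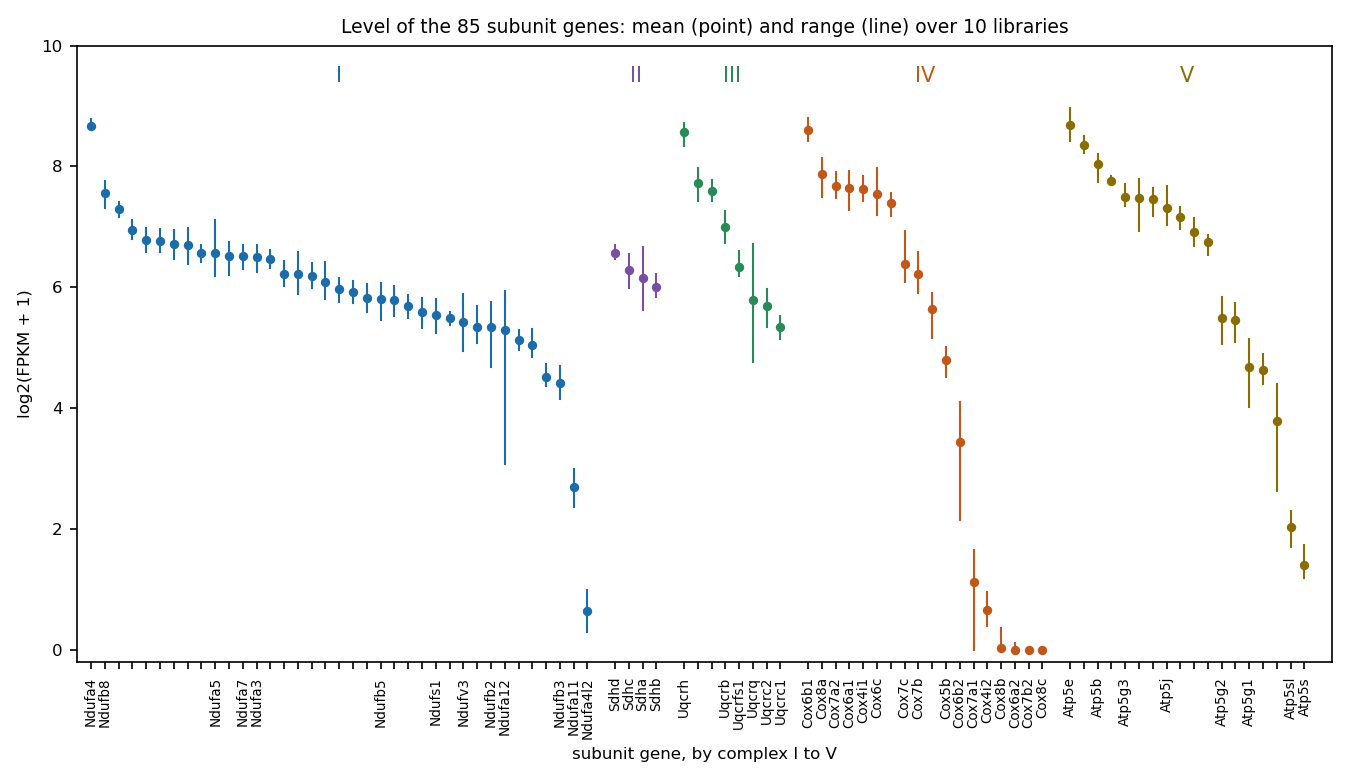
Level of the 85 members as log2(FPKM + 1), ordered within complexes I to V, with labels for selected members; points are means over the 10 libraries and lines run from the lowest to the highest library. Most members lie between 4 and 9, and Ndufa4l2, Cox4i2, Cox8b, Cox6a2, Cox7b2 and Cox8c lie near 0.

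Differences between the library sets were larger for several subunits than differences between genotypes. All 3 libraries of the second set lay above the 7 of the first in 13 of the 79 tested members, and below them in 8. Over all tested genes these shares were 15.5% and 6.28%, so the higher count was near the background and not particular to the members. The members given with their values for this split were chosen after those values were seen. Both counts cover all 79 tested members and come from a split made on these data, so they are given without a test. The higher ones were Ndufa1, Ndufa5, Ndufa6, Ndufa8, Ndufb10, Ndufs6, Sdha, Uqcrb, Uqcrc2, Uqcrq, Cox6c, Atp5g1 and Atp5j, and the lower ones Ndufa2, Ndufa13, Ndufb2, Ndufb8, Uqcrh, Uqcr11, Cox4i1 and Cox7a2. Within the sets, the median difference between mutants and controls over the members was 0.05 in the first and 0.00 in the second, against 0.16 and -0.08 over all tested genes. With the set as a term in the fit, the median of the members was 0.04 and 0 of them were called, against 0.547% of all tested genes.

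Uqcrq, a small quinone-binding subunit of complex III at chr11:53427922-53430831 on the minus strand (GRCm38), differed most between the sets. It had 26.3, 38.0, 32.5, 104 and 95.5 FPKM in mutants 1 to 5, against 29.1, 43.2, 42.2, 44.0 and 86.6 FPKM in controls 1 to 5. The second set ran from 86.6 to 104 FPKM and the first from 26.3 to 44.0 FPKM, whatever the genotype. Its log2 difference between mutants and controls was 0.14 (SE 0.43, adjusted p 0.946 by limma) and -0.15 with the set as a term. Uqcrq was named after its values were seen. Ndufa5, of the peripheral arm of complex I, ran from 108 to 138 FPKM in the second set and from 71.7 to 92.6 FPKM in the first. Cox6c ran from 201 to 250.5 FPKM in the second set and from 146 to 188 FPKM in the first, and Atp5j, of the stalk of complex V, from 184 to 203 FPKM in the second and from 129 to 157 FPKM in the first. Ndufb2 went the other way, with 24.6 to 36.1 FPKM in the second set and 38.6 to 53.2 FPKM in the first. Cox6c overlaps Vps13b and Atp5j overlaps Gabpa in exons of the opposite strand, and exons of Ndufb2 overlap those of Gm16272, Braf or both there.

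**Figure D4:**
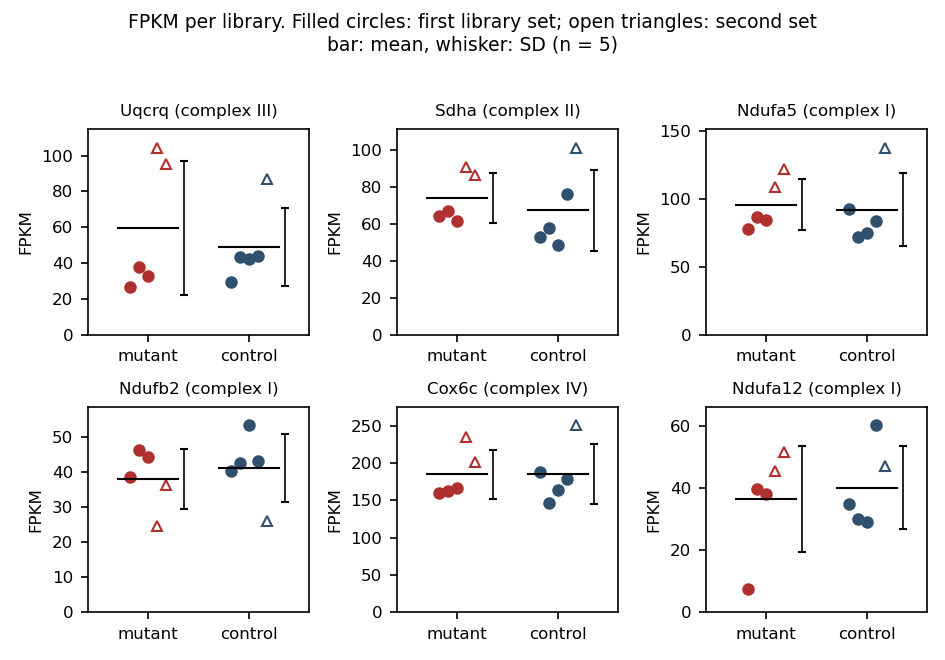
FPKM per library of 6 members, with mutants left of controls; filled circles are libraries of the first set, open triangles those of the second, bars group means and whiskers SD (n = 5). In Uqcrq, Sdha, Ndufa5 and Cox6c the triangles of both groups lie above all circles, in Ndufb2 below them, and in Ndufa12 mutant 1 lies alone at 7.49 FPKM.

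The members had short transcripts at the median, with a range from 371 to 3171 bases. The median length of the annotated transcript chosen for each was 758 bases in 4 exons over 77 members, against 2924 bases in 9 exons over 10945 other tested protein-coding genes. Across those 77 members, Pearson's r between log2 length and the difference between groups was -0.04, a description over genes that share libraries. The genes lie on 19 chromosomes, and 21 have exons that overlap exons of a gene on the other strand. Whether members contain minor introns was not analysed here.

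The 13 subunits encoded in mitochondrial DNA, which complete complexes I, III, IV and V, had a median difference of 0.46, with 12 above the median of all tested genes and 0 called. Their spread was wide. The mt-Nd2 transcript, for a membrane subunit of complex I, averaged 431 ± 154 FPKM in mutants and 280 ± 110 FPKM in controls (SD, n = 5 each), with a log2 difference of 0.64, an SE of 0.29 and an adjusted p of 0.568 by limma. The mt-Nd5 transcript, for another membrane subunit, averaged 278 ± 71.9 FPKM in mutants and 213 ± 48.6 FPKM in controls (SD, n = 5 each; adjusted p 0.597 by limma). The median was 0.43 within the first library set and 0.09 within the second, and 7 of the 13 lay higher in the second set. Sets of mitochondrial and nuclear genes were not tested against each other.

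Of 38 assembly factors, which help to build the complexes without staying in them, 1 passed the test. Over all tested genes, 0.155% passed (0.0666% lower in mutants), and 0.377% had all 5 mutants below all 5 controls. Of the 38, 12 lay above the median of all tested genes, and their median was 0.07. Coa3, which aids the translation and early assembly of the Cox1 subunit of complex IV, fell to 27.3 ± 4.12 FPKM in mutants, against 47.2 ± 5.11 FPKM in controls (SD, n = 5 each; log2 difference -0.78, SE 0.12, adjusted p 0.0374 by limma). Its groups did not overlap, with 23.1 to 32.7 FPKM in mutants and 41.6 to 53.4 FPKM in controls. The log2 difference ran from -0.84 to -0.72 with 1 library left out, but the call was lost when any 1 library other than control 5 was left out (adjusted p 0.0586 to 0.131). Cox17, a copper chaperone of complex IV, averaged 17.5 ± 2.92 FPKM in mutants and 13.8 ± 4.25 FPKM in controls (SD, n = 5 each; adjusted p 0.592 by limma). Of 9 carriers and subunits that the symbol rule does not reach, 0 were called and the median was 0.06. Cyc1, the cytochrome c1 of complex III, averaged 32.3 ± 2.37 FPKM in mutants and 27.7 ± 2.26 FPKM in controls (SD, n = 5 each; adjusted p 0.564 by limma). Dhodh, which feeds electrons into ubiquinone from pyrimidine synthesis, averaged 10.1 ± 1.73 FPKM in mutants and 11.3 ± 1.49 FPKM in controls (SD, n = 5 each; adjusted p 0.731 by limma).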

How the data were processed

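The authors deposited 1 list of gene symbols and FPKM values for each of the 10 libraries. Per the labels' protocols, RNA was extracted with Trizol and made into stranded total RNA libraries after Ribo-Zero. HISAT2 and the build GRCm38 (mm10) are named per the submitters' processing notes. No source used here gives the program behind the FPKM, its annotation or its use of strand, and the unit was read from the values. Library FPKM summed to between 1996700 and 3051430. Depth is not stated, so it was estimated from the most frequent single-fragment step, and no counting intervals were computed.

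Members and gene lists were chosen with earlier results of these data known. Genes that reached 1 FPKM in 5 or more libraries were tested as log2(FPKM + 1) in limma 3.58.1 (R 4.3.3), with an intensity trend, robust moderation and genotype as the term. P-values were adjusted by Benjamini-Hochberg over all 13522 genes, with a threshold of 0.05. The rule named members past the threshold or without overlap, the 2 smallest p and the highest level in each complex, the tissue isoforms with their counterparts, the subunit c genes, and the 2 smallest p in each related list. A member withheld from the text is counted and not reported here. Members named outside this rule were chosen after their values were seen. Alternatives changed the pseudocount, filter, scaling, moderation, library set, replicate block and libraries used. The fit was tested on simulated data. Genes were located in GENCODE M21. Correlations between libraries ran from 0.9603 to 0.9847, so none was deposited more than once. Summaries used Python 3.11.15, pandas 2.3.3 and matplotlib 3.10.9.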

Additional observations from a re-analysis of the deposited data

Results flagged for a closer look

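In 5 of 56 groups of 5 libraries checked, 1 library stood apart from its group. The rule flags about 1 in 20 groups by chance when groups are chosen without regard to their values. Some genes checked here, Uqcrq among them, were named after their values were seen, so that rate is no yardstick for this count. Atp5e was at 501 FPKM in mutant 2, with the other mutants at 342 to 354 FPKM, and at 352 FPKM in control 5, with the other controls at 449 to 486 FPKM. Cox8a was at 282 FPKM in control 4, with the other controls at 179 to 202 FPKM. Ndufb3 was at 16.8 FPKM in control 2, with the other controls at 19.1 to 19.7 FPKM. Uqcrq was at 86.6 FPKM in control 5, with the other controls at 29.1 to 44.0 FPKM. Control 5 belongs to the second library set, in which Uqcrq ran from 86.6 to 104 FPKM and Atp5e from 342 to 352 FPKM.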

How the results depend on the processing

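The count of members past the threshold was 0 in all alternatives but the first library set alone, where Cox6b2 was called (difference 1.26). The count over all genes was 21 (12 higher, 9 lower). It was 2 without the filter, 30 under median-ratio scaling (11 higher, 19 lower), 35 under quantile normalization (13 higher, 22 lower), 74 with the set as a term, 11 under plain moderation, 89 in the first set alone and 2 to 80 with 1 library left out, 80 being without control 5. Whether the replicate numbers pair the libraries could not be settled. Of 5 same-numbered pairs, 3 correlated over 0.1. The highest, mutant 5 with control 5 (0.52), lies within the second library set, where mutant 4 with control 5 reached 0.50. With the replicate block, 14 genes and 0 members were called, and 5 of 10 libraries correlated best with their own number. Medians under median-ratio scaling were -0.10 over all members, -0.11 in complex I, -0.11 in complex II, -0.047 in complex III, 0.034 in complex IV and -0.10 in complex V. With 1 library left out they ran from 0.01 to 0.08 over all members and from 0.10 to 0.21 in complex IV. Assembly factors called were 0 without the filter and under plain moderation, and 0 to 1 with 1 library left out. Rnu11 passed under quantile normalization (-1.54), with the set as a term (-1.65) and in the first set alone (-2.02). Ndufa12 turned to 0.16 without mutant 1 and ran from -0.49 to 0.16 over the left-out libraries. Uqcrq turned to -0.15 with the set as a term and -0.28 in the first set alone, and ran from -0.12 to 0.37 over the left-out libraries. Over the named genes, 489 of 510 values kept direction and side of the threshold. Depth is known only by estimate, which limits the low isoforms most.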

Other observations

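Of 12 regulators known to act on transcription of respiratory chain genes, 11 were tested, 0 were called and the median log2 difference was 0.10, the value of all tested genes being 0.11. Ppargc1a, a coactivator of mitochondrial biogenesis, ran from 2.097 to 2.43 FPKM in mutants and from 1.05 to 2.05 FPKM in controls, without overlap (log2 difference 0.35, SE 0.12, adjusted p 0.457 by limma). Over all tested genes, 1.52% had all 5 mutants above all 5 controls. Esrra, a nuclear receptor that works with Ppargc1a, averaged 8.21 ± 1.65 FPKM in mutants and 7.01 ± 1.62 FPKM in controls (SD, n = 5 each). Its adjusted p was 0.726 by limma.

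Of 17 glycolysis genes, 14 lay above the median of all tested genes, the median was 0.16, and 0 were called. Pfkp, an isoform of phosphofructokinase, averaged 5.62 ± 1.29 FPKM in mutants and 3.80 ± 0.437 FPKM in controls (SD, n = 5 each; adjusted p 0.366 by limma). Pfkm, another isoform, averaged 9.37 ± 0.346 FPKM in mutants and 7.83 ± 1.00 FPKM in controls (SD, n = 5 each; adjusted p 0.559 by limma). The median of this list was 0.18 within the first library set and -0.03 within the second, against 0.16 and -0.08 over all tested genes.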
